A study of Mus musculus with 40 samples.

Results

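The genes described here encode the aryl hydrocarbon receptor (Ahr), its dimer partner (Arnt), the chaperones that hold the unliganded receptor (Hsp90ab1, Hsp90aa1 and Ptges3) and a pair of repressors that the receptor itself induces (Ahrr and Tiparp). They make up 7 of the 55359 genes in the count files and were chosen by name for these roles. This choice, and that of the gene lists below, was made with earlier results of these data known. All 7 passed the filter on low counts that left 17345 genes for testing. Right kidneys of 40 male C57BL/6NCrl mice were studied by bulk RNA sequencing, in 8 groups of 5 libraries. The vehicle group received sesame oil alone, and the other groups received TCDD (2,3,7,8-tetrachlorodibenzo-p-dioxin, a persistent ligand of the receptor) at 0.03, 0.1, 0.3, 1, 3, 10 or 30 µg/kg. Both were given by gavage once every 4 days over 28 days, from 30 to 58 days of age, so that every group shares the gavage and the sesame oil. The labels give no deletion or transgene in any group. They do not say that kidneys were pooled, and p-values measure the spread between these libraries.

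Without a ligand the receptor is held in the cytosol by a chaperone complex that includes HSP90 and the co-chaperone p23 (the product of Ptges3). A ligand such as TCDD sends it to the nucleus, where it pairs with ARNT and binds DNA at sites with the core GCGTG, called xenobiotic response elements, and the receptor is then degraded by the proteasome. The products of Ahrr and Tiparp close a negative feedback loop. AHRR pairs with ARNT in place of the receptor, and TIPARP attaches ADP-ribose to the receptor and lowers its activity.

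Promoter sequences are shown for the members that the RefSeq promoter table holds, because the core GCGTG is the letter pattern that the receptor and ARNT read. RefSeq lists promoters for Ahrr, Tiparp, Arnt and Ptges3 (4 of 7 members, build GRCm38.p6). Each sequence is the 250 bases before the listed start, printed 5′ to 3′ on the strand of the gene, and capitals mark GCGTG or, for a match on the opposite strand, CACGC.
Ahrr, chr13:74292332-74292581, minus strand: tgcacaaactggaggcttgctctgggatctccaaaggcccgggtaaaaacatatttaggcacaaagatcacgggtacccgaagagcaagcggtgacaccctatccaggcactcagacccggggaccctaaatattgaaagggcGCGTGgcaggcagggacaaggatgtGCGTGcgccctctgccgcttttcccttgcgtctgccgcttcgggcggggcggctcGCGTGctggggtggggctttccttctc
Tiparp, chr3:65528197-65528446, plus strand: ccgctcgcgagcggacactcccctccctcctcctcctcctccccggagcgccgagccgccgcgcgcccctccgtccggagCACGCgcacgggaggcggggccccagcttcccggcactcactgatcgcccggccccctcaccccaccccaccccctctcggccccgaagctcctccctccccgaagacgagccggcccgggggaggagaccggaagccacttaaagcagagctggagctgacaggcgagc
Arnt, chr3:95434140-95434389, plus strand: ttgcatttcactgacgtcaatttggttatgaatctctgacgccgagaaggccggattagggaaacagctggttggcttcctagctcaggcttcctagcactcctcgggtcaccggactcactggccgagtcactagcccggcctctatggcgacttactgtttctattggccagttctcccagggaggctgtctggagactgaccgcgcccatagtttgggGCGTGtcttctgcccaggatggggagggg
Ptges3, chr10:128058732-128058981, plus strand: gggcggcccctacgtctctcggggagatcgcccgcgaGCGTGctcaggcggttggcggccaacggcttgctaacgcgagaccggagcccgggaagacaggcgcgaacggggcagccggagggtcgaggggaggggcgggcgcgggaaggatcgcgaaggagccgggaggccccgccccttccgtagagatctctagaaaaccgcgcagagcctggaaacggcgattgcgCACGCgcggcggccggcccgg
The Ahrr window holds 3 matches, all on the strand of the gene, with their first bases at -107, -82 and -27 from the start. The window of Ptges3 holds 2, at -213 and, on the opposite strand, at -21. Those of Tiparp and Arnt hold 1 each, at -170 on the opposite strand and at -29. Of 32817 mouse promoter windows of the same length, 28.1% hold at least 1 match on either strand and 2.77% hold 3 or more. The longer pattern TNGCGTG, which contains the core, is found in the Ahrr window alone among these 4, at -29, and in 4.10% of all windows. GAANNTTC, a pair of heat shock element units, is found in none of the 4 and in 6.69% of all windows. These windows are rich in G and C, at 60.4% for Ahrr, 75.2% for Tiparp, 57.2% for Arnt and 73.2% for Ptges3 against a median of 52.4%. A match is a string of letters and does not show that the receptor binds there.

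Gene counts summed to between 15278423 and 25575317 per library, and levels are given in CPM (gene counts scaled to a common library size with TMM factors). Kidney markers were present, and those of the proximal tubule S1-S2 summed to at least 12749.5 CPM in every vehicle library. Adrenal cortex markers summed to at most 9.08 CPM in vehicle and at 10 and 30 µg/kg. The 2 adrenal genes tested had a median log2 fold change against vehicle of 6.33, 6.47 and 3.03 at 0.03, 1 and 3 µg/kg. It was -0.60 and -0.22 at 0.1 and 0.3 µg/kg, and neither gene was called (as defined below). Whether libraries of these doses held adrenal tissue was not tested. Fat markers summed to 736 to 1284.5 CPM in vehicle and to 704.5 to 1153.1 CPM at 30 µg/kg. Libraries of the 30 µg/kg group differed from each other in S3 proximal tubule markers, which summed to 2892, 1641, 477, 937 and 1297 CPM in replicates 1 to 5 against 1777 to 4074 CPM in vehicle. A gene was called when its edgeR quasi-likelihood p-value, adjusted over all 17345 genes with the Benjamini-Hochberg method, was under 0.05.

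In vehicle kidneys the members spanned a wide range of levels. Per kilobase of exon, which allows genes to be compared, Hsp90ab1 stood highest at 441 ± 50.2 CPM per kb (SD, n = 5), above 99.65% of 17275 tested genes with a length. Hsp90aa1 followed at 117.5 ± 23.6 and Ptges3 at 53.8 ± 4.93 CPM per kb. Tiparp at 6.61 ± 0.894 and Arnt at 5.61 ± 0.977 CPM per kb were the neighbours whose levels did not differ beyond their spread. Ahr stood at 1.64 ± 0.257 CPM per kb, at the 37.8th percentile, so that its partner Arnt had more transcript per length than the receptor. Ahrr was lowest, at 0.117 ± 0.0738 CPM per kb, with 9 to 40 counts in the vehicle libraries.

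The members that rose with dose were the repressors Ahrr and Tiparp, and the only members called lower were the 3 chaperone genes, all at 30 µg/kg. Ahr and Arnt were called at no dose. At 0.03, 0.1, 0.3 and 1 µg/kg, 0 of 7 members were called, against 0%, 0%, 0.00577% and 0.513% of all genes. Members with an unadjusted edgeR p under 0.05 numbered 2, 0, 1 and 1 at those doses. Among all 17345 genes, 983, 960, 908 and 1231 had such a p. At 3 µg/kg and at 10 µg/kg, 1 member was called, against 1.09% and 4.82% of all genes. At 30 µg/kg, 5 members were called, 2 higher and 3 lower, against 15.9% of all genes (8.39% higher and 7.55% lower). Over all genes these calls were 1456 higher and 1310 lower, and with library totals alone in place of TMM scaling they were 1774 higher and 943 lower. Along the dose rank, from 0 for vehicle to 7 for 30 µg/kg, 5 members had a trend, the same 2 rising and the same 3 falling, against 19.8% of all genes (11% rising, 8.84% falling). A test of any difference among the 8 groups called Ahrr, Tiparp and Hsp90ab1, against 14.7% of all genes. All comparisons with vehicle share the vehicle libraries.

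**Figure D1:**
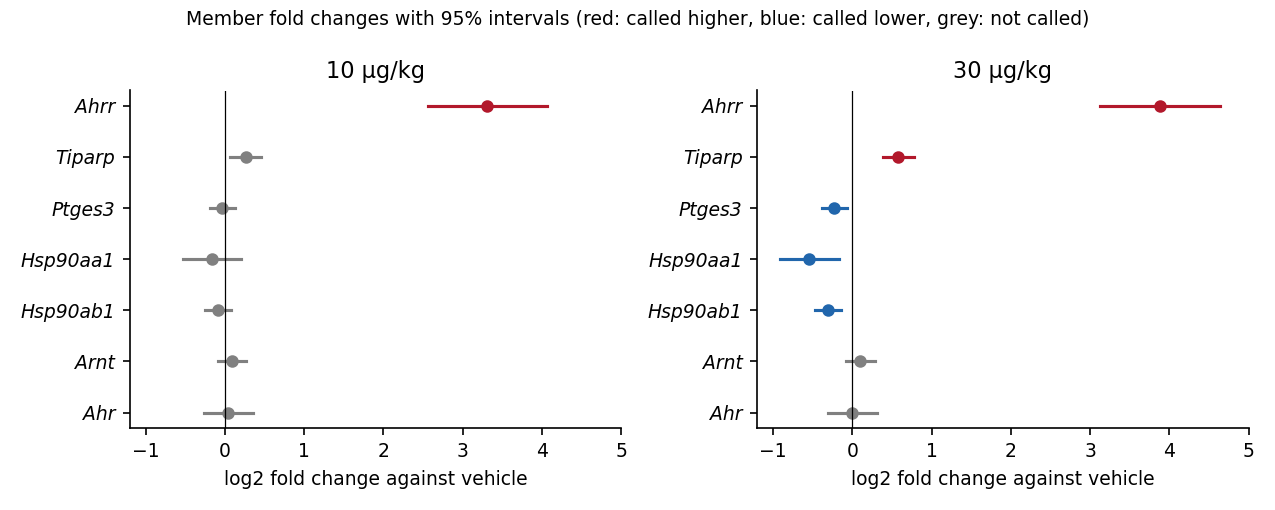
Log2 fold changes of the 7 members at 10 and 30 µg/kg against vehicle (points, with 95% intervals from the edgeR fit to 40 libraries; red called higher, blue called lower, grey not called). Ahrr stands at 3.31 and 3.89, apart from the other members, and the 3 chaperone genes lie below 0 at 30 µg/kg.

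Ahrr (ENSMUSG00000021575, GRCm38 chr13:74211118-74292331, minus strand) encodes the repressor that competes with the receptor for ARNT. Its vehicle libraries stood at 0.518, 0.607, 1.08, 1.05 and 2.265 CPM. Means at 0.03, 0.1 and 0.3 µg/kg were 0.931 ± 0.406, 1.04 ± 0.439 and 1.09 ± 0.831 CPM (SD, n = 5), within the vehicle spread. Only replicate 2 at 0.3 µg/kg, with 2.54 CPM, lay above all vehicle libraries at those 3 doses.

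At 1 µg/kg the 5 Ahrr libraries held 2.75, 3.59, 0.751, 2.42 and 2.36 CPM. Replicates 1, 2, 4 and 5 stood above all vehicle libraries and replicate 3 lay inside the vehicle range. A change of 1.11 ± 0.39 on the log2 scale (SE) was not called (edgeR adjusted p = 0.347). At 3 µg/kg the libraries held 6.06, 2.685, 4.69, 3.75 and 6.02 CPM, all above every vehicle library, and Ahrr was called (2.08 ± 0.37 on the log2 scale, edgeR adjusted p = 0.000669).

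At 10 µg/kg Ahrr stood at 9.35, 9.79, 10.25, 13.1 and 12.3 CPM, above every library of every lower dose. The change from vehicle was 3.31 ± 0.37 on the log2 scale (SE; edgeR adjusted p = 5.04e-08). At 30 µg/kg it stood at 15.2, 18.4, 10.7, 18.7 and 18.6 CPM, and replicate 3 overlapped the 10 µg/kg libraries. This was a rise of 3.89 ± 0.37 on the log2 scale, or 14.8-fold, with a 95% interval of 3.13 to 4.64 on the log2 scale (edgeR adjusted p = 8.73e-10). Ranked by p, Ahrr was number 19 of all genes at 30 µg/kg. Its trend was 0.65 ± 0.05 log2 units per dose step (edgeR adjusted p = 7.8e-13), number 7 of all genes. The call at 30 µg/kg held in all 6 other settings and in every 1 of 40 leave-one-library fits, where it ran from 3.71 to 4.31.

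No step between neighbouring doses was called for any member (0 of 7 in each of the 6 steps). The share of all genes called was 0% from 0.03 to 0.1 µg/kg, 0.00577% from 0.1 to 0.3, 0.213% from 0.3 to 1, 0.0115% from 1 to 3, 0.11% from 3 to 10 and 2.7% from 10 to 30 µg/kg. For Ahrr the estimated steps from 0.3 µg/kg upward were 1.07 ± 0.38, 0.96 ± 0.35, 1.23 ± 0.325 and 0.58 ± 0.31 on the log2 scale (SE). The unadjusted edgeR p was 0.00776, 0.00832, 0.000506 and 0.0723 in the same order, and the adjusted p was 0.74, 1, 0.115 and 0.406. The last step had a 95% interval of -0.05 to 1.21, which includes no change and also steps as large as those from 0.3 to 1 and from 1 to 3 µg/kg. Without replicate 1 of the 30 µg/kg group, 3 members were called between neighbouring doses.

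Tiparp (ENSMUSG00000034640, chr3:65528410-65555518, plus strand) encodes the ADP-ribosyltransferase that acts on the receptor. Its vehicle libraries stood at 34.7, 29.7, 28.6, 26.8 and 24.2 CPM, and no library from 0.03 to 3 µg/kg lay above all of them. Group means at those 5 doses ran from 26.35 ± 2.22 CPM at 0.1 µg/kg to 30.0 ± 2.34 CPM at 0.3 µg/kg (SD, n = 5). At 10 µg/kg the libraries held 35.7, 39.6, 28.25, 34.8 and 34.3 CPM, and replicates 1, 2 and 4 lay above all vehicle libraries. The estimate of 0.26 ± 0.10 on the log2 scale (SE) was not called (edgeR adjusted p = 0.127), but it was called without vehicle replicate 1, at 0.34, or without replicate 3 of that dose, at 0.32.

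At 30 µg/kg Tiparp stood at 43.5, 47.7, 48.4, 38.0 and 38.1 CPM, and all 5 libraries lay above all vehicle libraries. This rise was 0.58 ± 0.10 on the log2 scale, or 1.5-fold, with a 95% interval of 0.39 to 0.78 on the log2 scale (edgeR adjusted p = 2.37e-05). Ranked by p, Tiparp was number 237 of all genes, and its call held whichever of the 40 libraries was omitted. The step from 10 to 30 µg/kg was 0.32 ± 0.10 (edgeR adjusted p = 0.0591). Its trend over the dose rank (edgeR adjusted p = 0.000119) was not called without the 30 µg/kg group (edgeR adjusted p = 0.192). The counts do not use strand, and 5.12% of the exonic bases of Tiparp overlap 4931440P22Rik on the opposite strand, so reads there cannot be told apart.

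**Figure D2:**
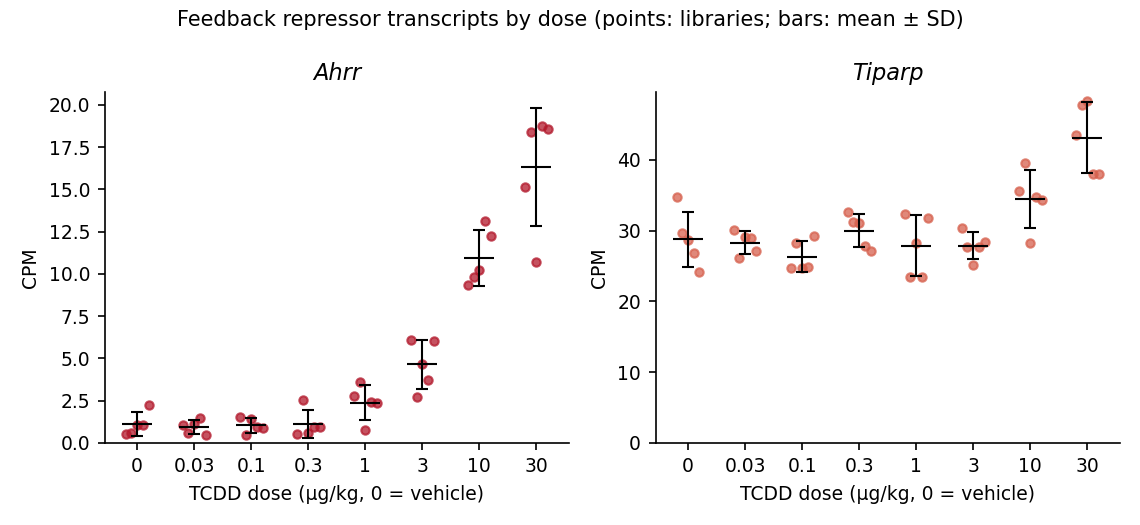
CPM of Ahrr and Tiparp in each of the 40 libraries by TCDD dose (points; horizontal bars with whiskers are group means ± SD, n = 5). Ahrr lies above all vehicle libraries in 4 of 5 libraries at 1 µg/kg and in all 5 from 3 µg/kg upward. Tiparp lies above all of them in 3 of 5 at 10 µg/kg and in all 5 at 30 µg/kg.

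Ratios between members within a library cancel the library scaling, apart from a prior count of 2. The log2 ratio of Ahrr to Ahr was -3.23 ± 0.93 in vehicle and 0.68 ± 0.19 at 30 µg/kg (SD, n = 5), so that Ahrr passed Ahr in CPM. At 10 µg/kg the ratio was 0.07 ± 0.30. The ratio takes no account of length, and Ahrr has 9.441 kb of exon against 6.163 kb for Ahr. Per kilobase, Ahrr and Ahr had means of 1.73 and 1.64 CPM per kb at 30 µg/kg. At 10 µg/kg these were 1.16 and 1.69 CPM per kb, with Ahrr the lower. For the ratio of Ahrr to Ahr all 5 libraries at either dose lay above all vehicle libraries. The two-sided exact permutation p was 0.00794, the smallest that 5 against 5 can give. Adjusted over the 35 ratio tests (5 ratios at 7 doses) it was 0.0556, and 0 of 35 passed 0.05. Counted on the sense column of the files, 6 of the 35 passed. Because no smaller p is possible, an adjusted p falls under 0.05 only when enough tests reach that smallest p together. The count that passes therefore depends on how many do, and does not measure the size of a change.

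The ratio of Ahrr to Tiparp was 3.32 higher on the log2 scale at 30 µg/kg than in vehicle, and all 5 libraries exceeded every vehicle library. This ratio did not pass after adjustment (exact permutation p = 0.00794, adjusted p = 0.0556). The edgeR estimates at this dose were 3.89 for Ahrr and 0.58 for Tiparp on the log2 scale. Their 95% intervals, 3.13 to 4.64 and 0.39 to 0.78, did not overlap. The ratio of Tiparp to Ahr differed by 0.60, from 1.503 ± 0.22 in vehicle to 2.10 ± 0.38. For it, 4 of 5 libraries exceeded every vehicle library (exact permutation p = 0.0159, adjusted p = 0.0794).

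Ahr (ENSMUSG00000019256, chr12:35497974-35535038, minus strand) encodes the receptor, and its transcript was called at no dose. Vehicle libraries held 11.3, 11.4, 7.985, 11.0 and 8.89 CPM, and those at 30 µg/kg held 10.8, 12.0, 7.045, 11.2 and 9.425 CPM. The groups overlapped almost entirely, with means of 10.1 ± 1.58 and 10.1 ± 1.95 CPM (SD, n = 5). Relative to vehicle the estimate at 30 µg/kg was 0.000 ± 0.15 on the log2 scale (SE; edgeR adjusted p = 0.9995). Its 95% interval of -0.31 to 0.31 leaves room for a change of that size in either direction.

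The lowest Ahr means were 8 ± 1.24 CPM at 0.03 µg/kg and 8.01 ± 1.03 CPM at 0.3 µg/kg. At 0.3 µg/kg the libraries held 7.975, 7.09, 8.405, 7.04 and 9.52 CPM, and 3 of 5 lay below all vehicle libraries. At 0.03 µg/kg only replicate 4, with 5.89 CPM, did so. Estimates were -0.34 ± 0.16 on the log2 scale at either dose, with unadjusted edgeR p of 0.0342 and 0.0368 and adjusted p of 0.864 and 0.92. At 0.1 µg/kg, between them, the mean was 9.49 ± 0.677 CPM, and from 1 to 30 µg/kg means ran from 9.65 to 10.4 CPM. A trend was not called (edgeR adjusted p = 0.292), nor was a difference among the 8 groups (edgeR adjusted p = 0.303). Opposite-strand Gm48236 overlaps 2.06% of its exonic bases.

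Arnt (ENSMUSG00000015522, chr3:95434388-95497240, plus strand) encodes the partner that the receptor shares with other proteins, among them the hypoxia-inducible factors. Its vehicle libraries held 48.3, 49.95, 44.7, 31.5 and 50.3 CPM, with replicate 4 low, and the 8 group means ran from 43.8 ± 3.00 CPM at 0.03 µg/kg to 48.4 ± 5.06 CPM at 30 µg/kg (SD, n = 5). At 30 µg/kg the libraries held 47.2, 44.1, 57.2, 46.5 and 46.9 CPM, and replicate 3 alone lay above all vehicle libraries. The estimate for that dose was 0.10 ± 0.09 on the log2 scale (SE), with a 95% interval of -0.08 to 0.28 (edgeR adjusted p = 0.494). Over the 40 leave-one-library fits it ran from 0.00 to 0.15 and was never called. The log2 ratio of Ahr to Arnt was -2.13 ± 0.40 in vehicle and -2.27 ± 0.44 at 30 µg/kg (exact permutation p = 0.659).

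**Figure D3:**
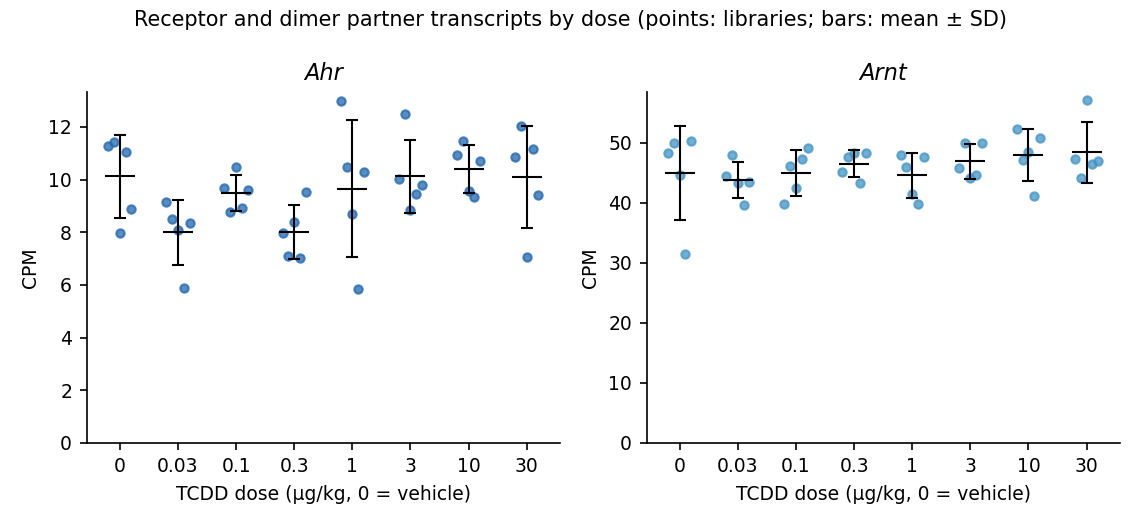
CPM of Ahr and Arnt in each of the 40 libraries by TCDD dose (points; horizontal bars with whiskers are group means ± SD, n = 5). The groups of both genes overlap at every dose, with Ahr between 5.86 and 12.97 CPM and Arnt between 31.54 and 57.17 CPM.

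The chaperone genes of the receptor complex changed in the direction opposite to the repressors. Hsp90ab1 (ENSMUSG00000023944, chr17:45567775-45573271, minus strand) encodes the constitutive cytosolic HSP90. Vehicle libraries held 1191, 1178, 1443, 1513 and 1286 CPM, and those at 30 µg/kg held 1258, 1089, 985, 1008 and 992 CPM. Replicates 2 to 5 of the dose lay below all vehicle libraries, while replicate 1 lay among them. Hsp90ab1 was 1.24-fold lower, at -0.31 ± 0.08 on the log2 scale (SE; edgeR adjusted p = 0.00549), a call kept in all 40 leave-one-library fits. Fitted to the 10 libraries of the 2 groups alone it was not called (edgeR adjusted p = 0.0979). Its means at 0.03 and 0.1 µg/kg were above vehicle, at 1488 ± 212 and 1417 ± 180 CPM against 1322 ± 151, with 1 library at each dose above all vehicle libraries.

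Hsp90aa1 (ENSMUSG00000021270, chr12:110690605-110702728, minus strand) encodes the stress-inducible HSP90. Its vehicle libraries held 402.6, 418.9, 623, 461 and 405 CPM, and those at 30 µg/kg held 490, 360, 225, 215.5 and 298 CPM. Replicate 1 again lay inside the vehicle range and the other 4 lay below it. Hsp90aa1 was 1.45-fold lower, at -0.54 ± 0.18 on the log2 scale (SE), with a 95% interval of -0.91 to -0.17 (edgeR adjusted p = 0.0377). The call was lost in 5 of 40 leave-one-library fits (without vehicle replicate 3 or 4, or replicate 3, 4 or 5 of the dose), and it was also lost with library totals alone, without the low-count filter and with the 10 libraries alone. Omitting replicate 1 of the 30 µg/kg group gave -0.75 (edgeR adjusted p = 0.00179).

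Ptges3 (ENSMUSG00000071072, chr10:128058954-128077272, plus strand) encodes p23, which stabilises the closed form of HSP90. Vehicle libraries held 113.4, 108.5, 135, 127 and 113.5 CPM, and those at 30 µg/kg held 130, 105, 95.65, 89.55 and 90.05 CPM, again with replicate 1 inside the vehicle range and the other 4 below it. Ptges3 was 1.17-fold lower, at -0.23 ± 0.08 on the log2 scale (SE; edgeR adjusted p = 0.0399). This call was lost in the same 3 other settings and the same 5 leave-one-library fits as that of Hsp90aa1. Without replicate 1 of the dose it was -0.33 (edgeR adjusted p = 0.000738). A pseudogene, Ptges3-ps, held 5.22 to 8.29 CPM in the vehicle and 30 µg/kg libraries. Multimapping reads were left out, so a read that fits Ptges3 and Ptges3-ps equally is counted for neither. How many such reads there were was not tested.

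From 0.03 to 10 µg/kg none of the 3 chaperone genes was called. Their estimates at 10 µg/kg, on the log2 scale, were -0.08 ± 0.08 for Hsp90ab1, -0.17 ± 0.18 for Hsp90aa1 and -0.03 ± 0.08 for Ptges3 (SE). Without the 30 µg/kg group none of the 3 had a trend. The trend of Ptges3 was called in 3 of 7 other settings and was also lost with library totals alone, without the low-count filter and with the sense column, and in 6 of the 40 leave-one-library fits. Leave-one-library fits gave 3 to 5 members that differed among the 8 groups, with 5 when replicate 1 of the 30 µg/kg group was omitted. Over the same fits 2062 to 2958 of all genes differed.

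**Figure D4:**
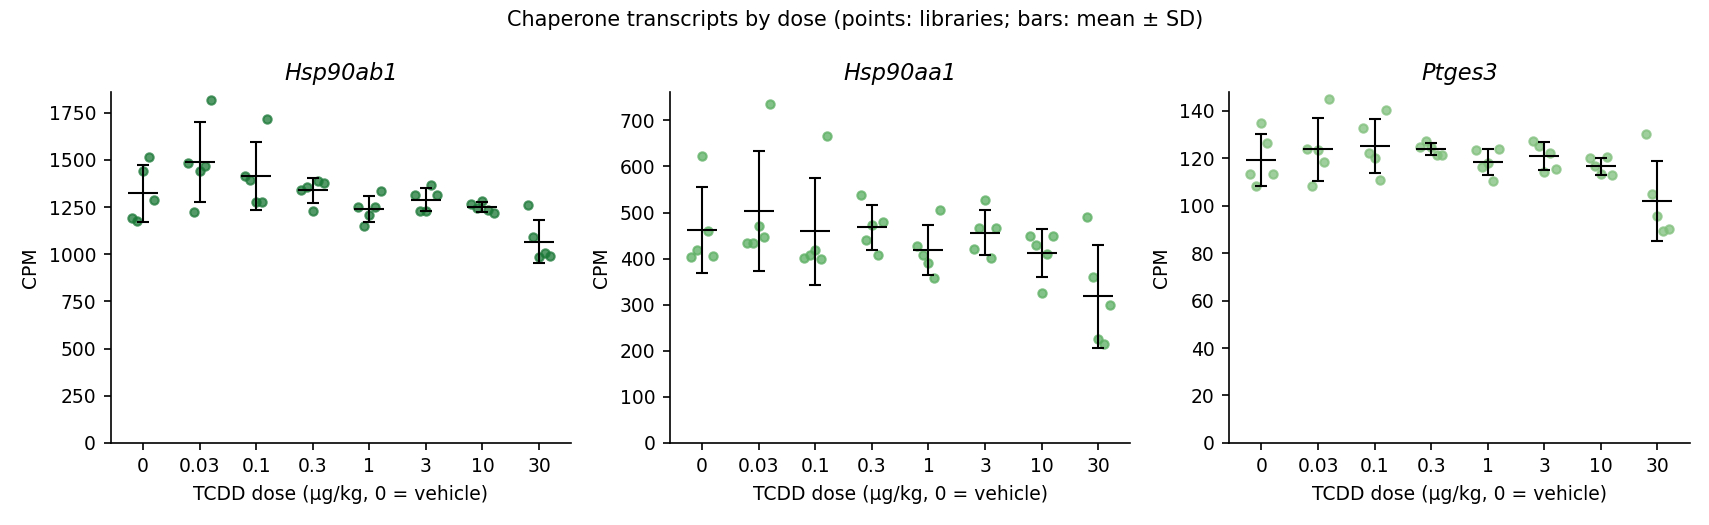
CPM of Hsp90ab1, Hsp90aa1 and Ptges3 in each of the 40 libraries by TCDD dose (points; horizontal bars with whiskers are group means ± SD, n = 5). In the 30 µg/kg group 4 of 5 libraries lie below all vehicle libraries for each gene, and single libraries stand high for Hsp90aa1 in vehicle and at 0.03 and 0.1 µg/kg.

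The replicate of the 30 µg/kg group that kept vehicle-like chaperone levels, replicate 1, also had the highest S3 proximal tubule marker sum of its group, 2892 CPM. The marker list was lower at 30 µg/kg, with 5 of 8 genes called lower and 0 higher. Collecting duct principal cell markers had 4 of 6 genes called lower and 0 higher. Distal convoluted tubule and proximal tubule S1-S2 markers each had 3 called lower and 1 higher, of 7 and 8 genes. Endothelial markers summed to 911 to 1048 CPM against 678 to 812.5 in vehicle, and macrophage markers to 353 to 660 CPM against 214 to 260.5, with 6 and 9 of 10 genes called higher. None of the 10 genes of either list was at 0. Fibroblast and pericyte markers had 4 of 10 genes called higher and podocyte markers 3 of 8, with 0 lower in both. Intercalated cell markers had 2 of 7 called higher and 1 lower, and liver markers 2 of 7 higher and 2 lower. Thick ascending limb markers had 0 of 7 called. Over all genes 8.39% were called higher and 7.55% lower at this dose. The part of these shifts in the members' values was not tested, and in bulk tissue fewer cells of a type and less RNA per cell cannot be told apart.

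The chaperones varied together also among libraries that received the same dose. After subtracting each group's mean, log2 CPM of Ptges3 and Hsp90ab1 correlated over the 40 libraries with a Pearson r of 0.814 and a Spearman rho of 0.703 (permutation p = 2e-05 and 6e-05 within groups). Adjusted over the 21 pairs of members these were 0.00042 and 0.00126. Without the 2 libraries farthest from the median of the first gene, r was 0.751. For Ptges3 and Hsp90aa1, r was 0.758 and rho 0.606 (adjusted permutation p = 0.000945 and 0.00294), with r at 0.623 without the 2 farthest libraries. For Hsp90ab1 and Hsp90aa1, r was 0.658 (adjusted permutation p = 0.0049) and rho 0.423 (adjusted permutation p = 0.105), and r was 0.514 without the 2 farthest libraries. None of the other 18 pairs passed, among them Ahrr and Tiparp at an r of -0.28 (permutation p = 0.124, adjusted p = 0.445).

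Genes with the most similar pattern were taken over 40 libraries from 14198 genes with at least 1 CPM on average, as a description. For Hsp90aa1 they were Chordc1 (Pearson r 0.936), Dnaja1 (0.907) and Cacybp (0.878). For Hsp90ab1 they were Stip1 (0.908), Hspa8 (0.873) and Dnaja1 (0.870), and for Ptges3 they were Dnaja1 (0.874), Hsp90ab1 (0.855) and Ndufaf4 (0.854). Ahrr was most like Cyp1b1 (0.920), Emcn (0.915) and Atp12a (0.897) across groups. After the group means were subtracted its highest were Rgma (0.721), Icam2 (0.652) and Mark1 (0.627). Tiparp was most like Prom1 (0.814), Slc40a1 (0.799) and Elovl2 (0.798). The highest r was lower for Arnt, with 4931406P16Rik at 0.714, and for Ahr, with Map4k5 at 0.579. All libraries share the dose series, and depth differs between them.

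Other chaperone genes were taken from a list of the HSP90 family and its co-chaperones and a list of HSF1 targets and the HSP70 system. HSF1 is the heat shock transcription factor. At 30 µg/kg, 5 of 18 genes of the first list were called lower and 0 higher, against 7.55% and 8.39% of all genes. The median log2 fold change of this list was -0.17 against 0.01 over all genes. Fkbp4 stood at 218 ± 48.2 against 319 ± 16.9 CPM (SD, n = 5; log2 fold change -0.55) and encodes an HSP90-binding prolyl isomerase. Stip1, which links HSP70 to HSP90, changed by -0.53, Chordc1 by -0.51, Cacybp by -0.47 and Ppp5c by -0.19. The related Hsp90b1 of the endoplasmic reticulum, at -0.22 ± 0.13 (SE), and Trap1 of mitochondria, at -0.10 ± 0.06, were not called (edgeR adjusted p = 0.289 and 0.32).

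In the second list 7 of 15 genes were called lower and 0 higher, against the same 7.55% and 8.39% of all genes. Its median was -0.43 against 0.01 over all genes, and 0 of its 15 genes had a positive value. The called genes were Dnaja1 at -0.74, Dnajb1 at -0.63, Hsph1 at -0.59, Hspa8 at -0.49, Hspe1 at -0.47, Hspd1 at -0.29 and Hspa4 at -0.23. The stress-inducible Hspa1a, at -0.67 ± 0.49 (SE), and Hsf1, at -0.11 ± 0.08, were not called (edgeR adjusted p = 0.407 and 0.382). Dnaja1 in replicates 1 to 5 at 30 µg/kg stood at 284.5, 209, 153, 116 and 176 CPM against 246 to 430 CPM in vehicle, so that replicate 1 stayed in the vehicle range for it as for Hsp90ab1, Hsp90aa1 and Ptges3. In the fit to the 10 libraries alone, 2 genes of the first list and 1 of the second were called, against 969 of 15419 genes tested.

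**Figure D5:**
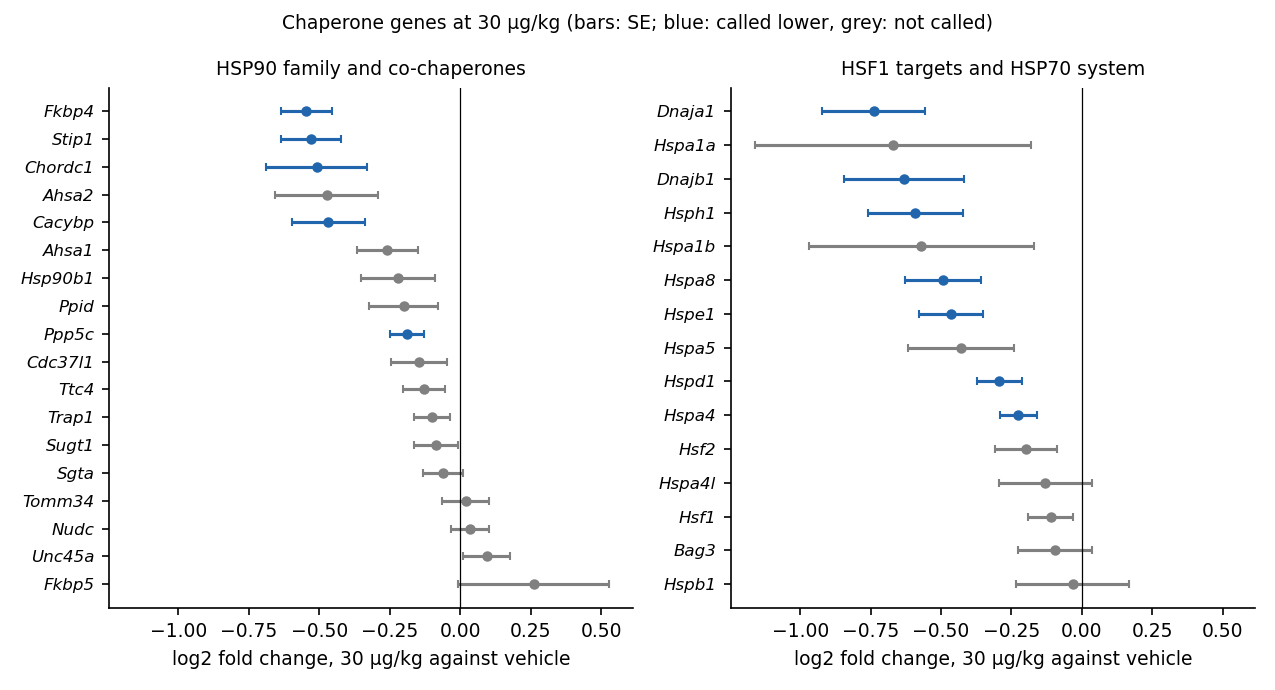
Log2 fold changes at 30 µg/kg against vehicle for 18 genes of the HSP90 family and co-chaperones and 15 HSF1 targets and HSP70 system genes (points; bars are SE; blue called lower, grey not called). Of the 33 genes 12 are called, all of them lower, where 7.55% of all genes are called lower. Dnaja1 at -0.74 is the lowest.

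Of 15 genes of the receptor complex and of receptor turnover, 1 (6.67%) was called at 30 µg/kg, against 15.9% of all genes. It was the nuclear import gene Kpna2, at -0.39 ± 0.13 (SE; edgeR adjusted p = 0.0323). The kinase co-chaperone gene Cdc37 and the ubiquitin ligase gene Stub1 were at 0.08 and 0.04 on the log2 scale and were not called.

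The other bHLH-PAS genes, the family of Ahr and Arnt, had 2 of 17 called higher and 5 lower at 30 µg/kg. Shares of all genes called at this dose were 8.39% higher and 7.55% lower. The list had a median log2 fold change of -0.08. Epas1, which encodes the hypoxia-inducible factor HIF-2 alpha and pairs with ARNT, rose by 0.37 ± 0.08 (SE; edgeR adjusted p = 0.00066), while Hif1a, also an ARNT partner, fell by 0.34 ± 0.08 on the log2 scale (edgeR adjusted p = 0.00293). These were also the genes of this list called at 10 µg/kg, at 0.34 and -0.31, where 4.82% of all genes were called. The clock genes Per1, at 1.26, Npas2, at -0.58, and Arntl, at -0.54, were called at 30 µg/kg. Arnt2, the closest relative of Arnt, was not, at -0.08 ± 0.10 (SE). Among coregulators of the receptor and ARNT, 1 of 25 was called higher, Klf6 at 0.37, and 1 lower, the Mediator gene Med14 at -0.65. Together these were 8% of the list, against 15.9% of all genes at 30 µg/kg.

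Tiparp belongs to the PARP family, and other members of that family were called at lower doses than Tiparp was. Of 21 PARP and macrodomain genes, 2 were called higher at 1 µg/kg, 4 at 3 µg/kg and 6 at both 10 and 30 µg/kg, with 1 and 3 lower at those last doses. These calls were 9.52%, 19%, 33.3% and 42.9% of the list at 1, 3, 10 and 30 µg/kg. Of all genes, 0.513%, 1.09%, 4.82% and 15.9% were called at the same doses. Mean CPM of Parp14 was 15.9 ± 1.36 in vehicle, 31.0 ± 4.57 at 1 µg/kg and 32.7 ± 7.23 at 30 µg/kg (SD, n = 5), and every library at either dose exceeded the vehicle range. It was called from 1 µg/kg upward, at 1.05 ± 0.17 on the log2 scale for 30 µg/kg (SE; edgeR adjusted p = 1.92e-05). Parp9 was at 0.63 and Parp12 at 0.56, while Macrod2, at -0.89, and Parp16, at -0.74, were called lower. Macrod1, whose product removes ADP-ribose from proteins, was not called at -0.26 ± 0.12 (SE; edgeR adjusted p = 0.1254). Whether the dose at which these genes were called differs from that of Tiparp was not tested.

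Of 17 tested target genes that are not members, 11 were called higher and 1 lower at 30 µg/kg, against 8.39% and 7.55% of all genes. Their median log2 fold change was 0.83 against 0.01 over all genes. Cyp1a1 was called from 0.3 µg/kg upward, and Cyp1b1, like Ahrr, from 3 µg/kg upward, at 1.48 there and 3.03 at 30 µg/kg. Ahrr at 3.89 lay between Cyp1b1 and Cyp1a1, which stood at 10.07, and Tiparp at 0.58 lay below the median of the list.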

How the data were processed

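Right kidneys of 40 mice were profiled by RNA sequencing. The members and gene lists were chosen with earlier results of these data known. The authors deposited 1 file of whole-number gene counts per library, laid out as STAR writes them, holding 1 unstranded and 2 stranded columns. The submitters' processing notes name FastQC 0.11.7, Trimmomatic 0.39, STAR 2.7.3a and DESeq2. They name the builds GRCm39 and mm10 without saying which served which step, and the annotation is not given in the sources used here. The unstranded column was used, since 50.4 to 51.0% of stranded counts were sense, and the sense column was an alternative. Gene names, lengths and coordinates came from GENCODE M21 (GRCm38), which named 52083 of 55359 identifiers, and the unnamed ones held 0.663% of counts. Lines naming no gene were left out: unmapped 1.41 to 2.66%, multimapping 6.98 to 9.70%, no feature 5.28 to 7.27% and ambiguous 5.40 to 5.98% of reads. The deposited table of the whole series was not used. Groups and doses were taken from the labels, and replicates were numbered in order of accession.

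Replicate pairs did not agree within sampling noise (chi-square per degree of freedom 7.34 to 87.9 over 80 pairs). Counts carry no molecular identifiers, so precision from depth covers counting error only. Genes were filtered with filterByExpr, scaled with TMM (0.966 to 1.09) and fitted to 40 libraries and 8 groups with edgeR 4.0.16 in R 4.3.3 (robust quasi-likelihood). The coefficient of variation was 17.1% and the prior count behind fold changes was 0.125. Each standard error was computed as the absolute fold change over the root of F. P-values were adjusted with the Benjamini-Hochberg method over every gene tested in a comparison. Log2 CPM for ratios and correlations used a prior count of 2. Ratios were compared by two-sided exact permutation tests, and correlations by 100000 permutations within groups (numpy 2.4.6, scipy 1.17.1). The fit was tested on simulated counts. Alternatives were DESeq2 1.42.0, its size factors, library totals alone, no filter, the sense column, fits to the 10 libraries of a comparison, a trend without 30 µg/kg or over log10 dose, a prior count of 0.5 for ratios, and leaving out each library. Named genes were the 7 members, a fixed set by role, the 2 called genes with the largest rise and fall in each list, and the 3 genes most like each member. Hspe1, Hspd1, Hspa4 and Ppp5c were named after their values were seen.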

Additional observations from a re-analysis of the deposited data

Results flagged for a closer look

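In groups of 5 libraries, a library was singled out where its gap to the next one, as a share of the group's whole range, exceeded Dixon's critical value of 0.71. Of 56 groups (7 members at 8 doses) 5 held such a library, where chance gives about 2.8. For Hsp90aa1 the highest library stood apart in 3 groups: vehicle replicate 3 at 622.6 CPM against 460.7 for the next, replicate 5 at 0.03 µg/kg at 735.2 against 470 CPM, and replicate 5 at 0.1 µg/kg at 665.8 against 419.7 CPM. Without vehicle replicate 3 the fall of Hsp90aa1 at 30 µg/kg was -0.41 on the log2 scale and was not called. Ahrr in replicate 2 at 0.3 µg/kg stood at 2.539 CPM, above the next library at 0.926 CPM. Arnt in replicate 3 at 30 µg/kg stood at 57.17 CPM, above the next at 47.22 CPM.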

How the results depend on the processing

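Of 2583 comparisons of a member's log2 fold change against vehicle or trend with an alternative (steps between neighbouring doses not counted), 2547 kept their side of the threshold, 34 lost a call and 2 gained one, and no called value changed sign. Members called at 30 µg/kg were 3 with library totals alone, 3 without the low-count filter and 2 with the 10 libraries alone, in place of 5. Leaving out a library gave 1 to 2 members called at 10 µg/kg, 3 to 5 at 30 µg/kg, 3 to 5 with a trend, 3 to 5 differing among the 8 groups and 0 to 3 between neighbouring doses. At 30 µg/kg the count was 3 when vehicle replicate 3 or 4, or dose replicate 3, 4 or 5, was omitted. Members with a trend were 1 without the 30 µg/kg group. Between neighbouring doses 1 member was called with library totals alone, 2 with DESeq2 and 1 with the sense column. Of the 35 ratio tests 6 passed with the sense column.

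Over all genes, DESeq2 called 7 at 0.03 µg/kg and 3 at 0.3 µg/kg. The 10-library fits called 113 at 3 µg/kg and 969 (631 higher, 338 lower) at 30 µg/kg, where leaving out a library gave 2014 to 3275. Leaving out a library gave 0 to 1 at 0.03 µg/kg and 119 to 220 at 3 µg/kg, the lowest without replicate 5 of that dose. A trend was called for 1399 genes without the 30 µg/kg group and for 2767 to 3601 without a library. The lists at 30 µg/kg moved as follows. The receptor complex list had 0 calls with library totals alone, 2 with DESeq2, 0 with the sense column, 0 with the 10 libraries and 0 to 3 without a library. The HSP90 list had 3, 3 and 2 with library totals, no filter and the 10 libraries, and 3 to 7 without a library. The HSF1 list had 1 with the 10 libraries and 4 to 7 without a library, the lowest without replicate 4 at 30 µg/kg. The bHLH-PAS list had 4 with library totals, 3 with the 10 libraries and 3 to 7 without a library. The coregulators had 4, 1 and 1 with library totals, no filter and the 10 libraries, and 1 to 3 without a library. Those 10-library fits have fewer samples, and the cause of the other differences was not tested.

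No paired analysis was possible because the labels carry no replicate numbers, so that the numbers used here only name libraries. Ahrr had 9 to 40 counts in the vehicle libraries, and its 95% interval at 0.3 µg/kg ran from -0.78 to 0.86 on the log2 scale.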
